A study of Homo sapiens and Mus musculus with 22 samples.

Results

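The 40 cell cycle and replication genes described here are a list of symbols picked for their known roles, by no threshold on a measured value, and were followed through the 8 groups of small cell lung cancer (SCLC) cells in the series. This list, and the lists of other cell cycle genes set beside it, were chosen with earlier results of these data known. All 40 were listed in each of the 3 count tables, which hold 25435, 20113 and 24047 genes, and all 40 passed the filter on low counts in each table, where their lowest count in a library was 303, 917 and 102. By role, 16 members were grouped as replication members and the other 24 as mitotic members. The replication members are genes of licensing, the helicase, the clamp and nucleotide synthesis, with the transcription factors E2F1 and E2F2. The mitotic members include the transcription factor FOXM1 and the general markers MKI67 and TOP2A. H69M PD-L1 high and H69M PD-L1 low are fractions of the human line H69M sorted for PD-L1, an immune checkpoint ligand, and are labelled high and low/negative for MHC class I. H69M, labelled MHC class I high, was sequenced unsorted, as was its parent line NCI-H69 (H69), labelled low/negative. H69EZ HLA high and HLA low are fractions sorted for HLA-ABC from H69EZ, which came from H69 by exposure to an EZH2 inhibitor for 6 days, then drug-free culture and selection of adherent cells, so both fractions carry that history. The columns of all 4 H69EZ libraries also bear the tag G1, which the labels do not explain, and whether it marks a selection of cells by cycle phase is not known from the sources used here. RPP-A is a mouse line, labelled MHC class I high, that was selected from the mouse SCLC line RPP, labelled low/negative, by adherent growth. Each group is 1 line or a sorted fraction of it, with 3 libraries a group and 2 for each H69EZ fraction, 22 in all. The labels give no genotype, and they are silent on whether the replicates of a group were grown separately, so a p-value here covers the spread among these libraries alone, which may be technical.

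Proliferating cells copy their DNA in S phase and divide it in M phase. Replication origins are licensed when CDC6 and CDT1 load the MCM2 to MCM7 helicase, which CDC45 and the GINS complex then activate, and PCNA clamps the polymerases to DNA while ribonucleotide reductase and thymidylate synthase supply nucleotides. Genes of this step are known targets of E2F transcription factors, which RB family proteins hold back. Mitotic genes peak later, under the MuvB complex with MYBL2 and FOXM1 acting through the cell cycle homology region (CHR), often beside CCAAT boxes. SCLC is known for loss of RB1 and for rapid proliferation.

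The promoters of the members are shown here because matches to 2 kinds of motif were spread unevenly between replication and mitotic members. In the RefSeq promoter table of the human build GRCh38.p14, 32 of the 40 members were matched, with 40 windows among 35116. MCM4, MCM5, AURKA, TTK, BIRC5, FOXM1, TPX2 and UBE2C were not matched. The 250 bases before each start were searched on both strands for the E2F-type letters TTTGGCGC, TTTCGCGC, TTTGGCGG and TTTCCCGC, for the CHR letters TTTGAA and TTTAAA, and for CCAAT. Among 20 windows of replication members, 11 held an E2F-type match (55%), against 3 of 20 windows of mitotic members (15%) and 2.83% of all windows. CHR letters stood in 3 of 20 replication windows (15%), in 16 of 20 mitotic windows (80%) and in 21.9% of all windows, and CCAAT in 75%, 90% and 32.0%. The split was smaller in the lists of other replication and other mitotic genes used below. There, E2F-type matches stood in 23.4% and 4.17% of windows, and CHR letters in 12.5% and 48.6%. Some genes have several windows, which can overlap, and a match is a run of letters and not a measured binding site. The last 150 bases before the start follow for 3 replication members and 4 mitotic members with large called changes. They were chosen after values and sequences were seen, 6 to show the matches and AURKB as a mitotic member without E2F-type or CHR letters, and E2F-type, CHR and CCAAT matches are in capitals. They lie at chr20:33686386-33686535 (- strand) for E2F1, chr1:23531234-23531383 (- strand) for E2F2, chr16:88803639-88803788 (+ strand) for CDT1, chr5:69167000-69167149 (+ strand) for CCNB1, chr15:59104996-59105145 (+ strand) for CCNB2, chr5:138178962-138179111 (+ strand) for KIF20A and chr17:8210250-8210399 (- strand) for AURKB.
E2F1: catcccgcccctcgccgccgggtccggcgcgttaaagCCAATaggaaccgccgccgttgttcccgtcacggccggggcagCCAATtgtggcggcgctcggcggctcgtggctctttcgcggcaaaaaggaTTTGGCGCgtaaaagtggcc
E2F2: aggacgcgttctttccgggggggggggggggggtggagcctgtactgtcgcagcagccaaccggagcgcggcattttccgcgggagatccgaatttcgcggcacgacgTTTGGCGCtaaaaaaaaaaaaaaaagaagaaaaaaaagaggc
CDT1: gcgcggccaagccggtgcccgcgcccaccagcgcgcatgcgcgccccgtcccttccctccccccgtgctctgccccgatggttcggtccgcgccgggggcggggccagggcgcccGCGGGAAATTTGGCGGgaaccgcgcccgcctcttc
CCNB1: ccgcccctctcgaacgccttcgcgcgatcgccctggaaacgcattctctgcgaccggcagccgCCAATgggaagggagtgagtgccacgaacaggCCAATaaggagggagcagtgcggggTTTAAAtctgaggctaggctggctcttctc
CCNB2: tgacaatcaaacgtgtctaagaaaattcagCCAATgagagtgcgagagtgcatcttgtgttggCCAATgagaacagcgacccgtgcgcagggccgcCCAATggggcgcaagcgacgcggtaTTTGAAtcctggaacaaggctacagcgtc
KIF20A: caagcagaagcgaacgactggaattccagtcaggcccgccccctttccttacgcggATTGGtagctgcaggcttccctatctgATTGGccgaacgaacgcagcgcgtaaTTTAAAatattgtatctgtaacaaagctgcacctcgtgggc
AURKB: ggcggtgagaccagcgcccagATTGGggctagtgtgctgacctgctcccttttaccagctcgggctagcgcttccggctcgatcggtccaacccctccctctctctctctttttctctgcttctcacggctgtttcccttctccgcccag
In E2F1 and E2F2 an E2F-type match ended 13 and 35 bases before the start, and CDT1 held 2 adjoining matches from 35 to 20 bases before it. CCNB1, CCNB2 and KIF20A held CHR letters 25 to 30, 24 to 29 and 36 to 41 bases before the start, each with at least 2 CCAAT boxes farther upstream. AURKB held a CCAAT match 125 to 129 bases before the start printed, and neither of its 2 windows held E2F-type or CHR letters. The printed windows do not stand for all members. PRC1 and CDK1 held CHR letters and were called lower in both sorted high fractions described below, and CENPA held them and was lower in PD-L1 high cells. BUB1 held no CHR letters and was called higher in the 3 human comparisons. TYMS held an E2F-type match and was called higher in PD-L1 high cells. Whether motif and direction go together was not tested.

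**Figure D1:**
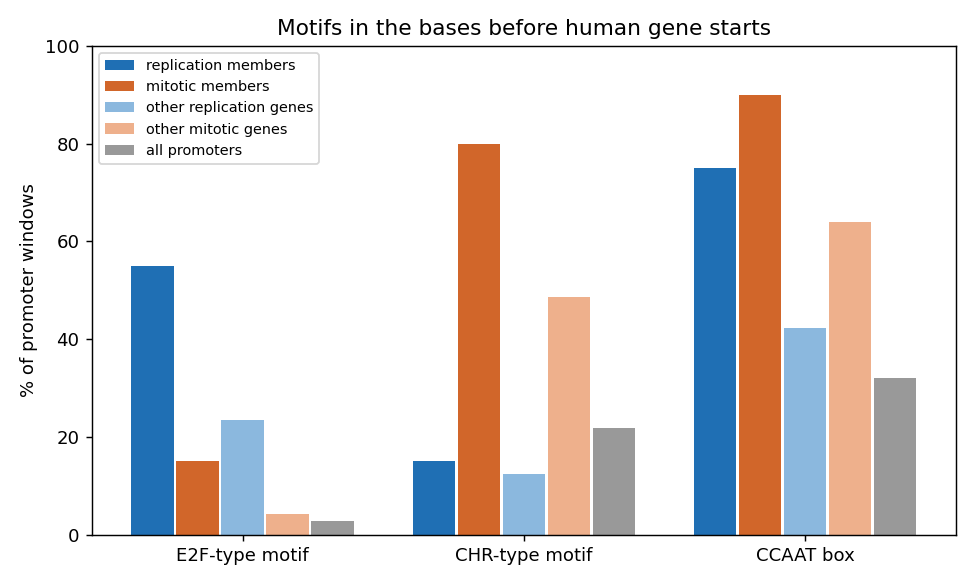
Percent of human promoter windows (vertical axis) that hold each kind of motif in the 250 bases before the gene's start. E2F-type matches were in 55% of windows of replication members and CHR letters in 80% of windows of mitotic members, against 2.83% and 21.9% of all windows. Among other replication genes E2F-type matches were in 23.4% of windows, and among other mitotic genes CHR letters were in 48.6%.

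Levels are CPM, counts scaled to the size of each library with edgeR's TMM factors within a table, and they are not compared between the 3 tables. Total counts per library ran from 10817795 to 52458228, and the members together took 0.507% to 1.25% of them. RPP column EHK_RPP4 and RPP-A column RPPM3 stood apart from the other columns of their groups, with 29.4 to 38.8 in a chi-square comparison of counts divided by its degrees of freedom, against 2.25 to 10.8 for human replicate pairs. RPP-A columns RPPM1 and RPPM2 differed least of all, at 1.35. Mouse results are therefore also given without EHK_RPP4 and RPPM3, and with RPPM1 and RPPM2 summed. In these bulk libraries fewer cells in a cycle phase and less RNA per cell cannot be told apart. Other cell states moved with the groups. In H69M against H69 the 5 fibroblast and stromal markers summed to 2475 to 2766 against 146 to 149 CPM, and 5 non-neuroendocrine markers to 637 to 644 CPM in H69M against at most 0.378 CPM in H69, where YAP1 was at 0; the 5 neuroendocrine markers overlapped, at 2714 to 2798 CPM in H69M against 2776 to 2953 CPM in H69. The neuroendocrine markers summed to 1066 to 1121 CPM in PD-L1 high against 3904 to 4128 CPM in PD-L1 low cells, to 549.5 to 570.3 against 1893 to 1909 CPM in HLA high and low cells, and to 150.4 to 191 against 2282 to 2828 CPM in RPP-A and RPP. The fibroblast and stromal markers summed to 11004 to 11315 against 234 to 329 CPM, to 16277 to 17716 against 93.9 to 96.8 CPM and to 22557 to 30124 against 75.0 to 421 CPM in the same pairs. Leukocyte markers summed to at most 7.85 CPM in any library, and CD3E was at 0 throughout. The part of these states in the results was not tested.

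Summed over genes, replication members were lower in the MHC class I high group of each human pair, and the ratio of mitotic to replication members was higher there. The 16 replication members summed to 4338 ± 42.3 CPM in H69M and 4902 ± 199 CPM in H69 (SD, n = 3 each), to 3600.2 ± 124 CPM in PD-L1 high and 5351 ± 84.5 CPM in PD-L1 low cells (n = 3 each), and to 2782 ± 19.6 CPM in HLA high and 3769.5 ± 71.0 CPM in HLA low cells (n = 2 each). The 24 mitotic members summed to 6494 ± 138 CPM in H69M and 5656 ± 144 CPM in H69, to 5708 ± 92.6 CPM in PD-L1 high and 5406 ± 57.7 CPM in PD-L1 low cells, and to 4765 ± 134 CPM in HLA high and 4523 ± 61.4 CPM in HLA low cells. The direction of the mitotic sums in both sorts depended on the scaling. On library totals without TMM they were lower in the high fractions, without overlap, at 5393 to 5544 CPM in PD-L1 high against 5607 to 5733 CPM in PD-L1 low cells and 4446 to 4596 CPM in HLA high against 4737 to 4795 CPM in HLA low cells. In H69M and H69 the mitotic sums kept their order, and so did the replication sums of all 3 human pairs. The ratio of the mitotic to the replication sum, which no scaling of libraries can alter, was 1.47 to 1.52 in H69M against 1.14 to 1.18 in H69. It was 1.53 to 1.62 in PD-L1 high against 0.981 to 1.03 in PD-L1 low cells, and 1.67 to 1.76 in HLA high against 1.20 in both libraries of HLA low cells. In each human pair the groups did not overlap. In the mouse both sums were lower in RPP-A, at 2149 ± 24.8 against 3781 ± 46.5 CPM for replication members and 4324 ± 664 against 6967 ± 289 CPM for mitotic members in RPP (n = 3 each). The ratio overlapped there, at 1.64 to 2.21 in RPP-A against 1.74 to 1.94 in RPP, with RPPM3 as the lowest. The overlap rested on RPPM3: without it and EHK_RPP4 the ratio was 2.19 and 2.21 in RPP-A against 1.74 and 1.85 in RPP, which did not overlap. The RPP-A columns then left, RPPM1 and RPPM2, differed by only 1.35 in chi-square per degree of freedom. They may not be separate cultures, so this separation may rest on 1 culture of RPP-A. These sums weight genes by their level and are given without a test.

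**Figure D2:**
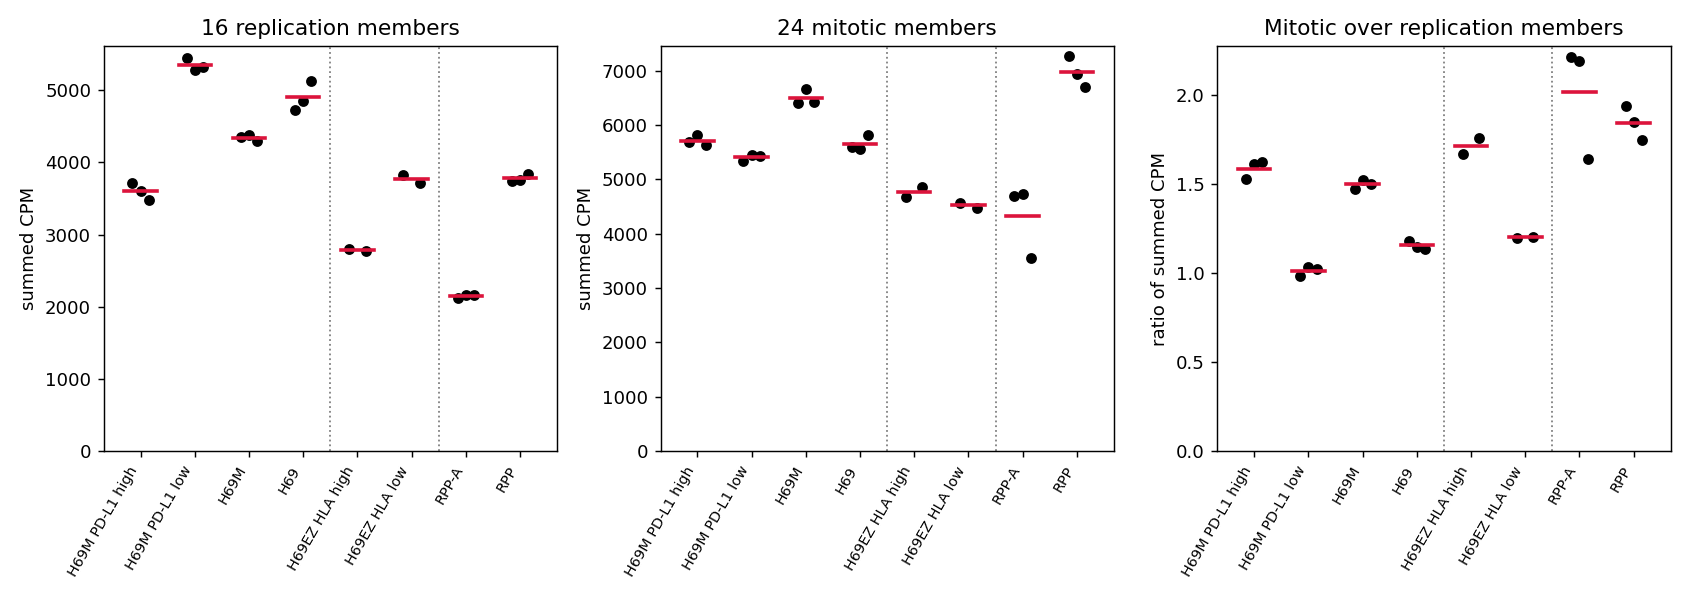
Summed CPM of the 16 replication members (left) and the 24 mitotic members (middle) and their ratio (right), with a point per library and a bar at the group mean for each of the 8 groups; dotted lines separate the 3 tables, between which levels are not comparable. The ratio was 1.53 to 1.62 in PD-L1 high and 0.981 to 1.03 in PD-L1 low cells, and RPP-A and RPP overlapped through column RPPM3; with library totals the mitotic sums of both sorts were lower in the high fraction.

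**Figure D3:**
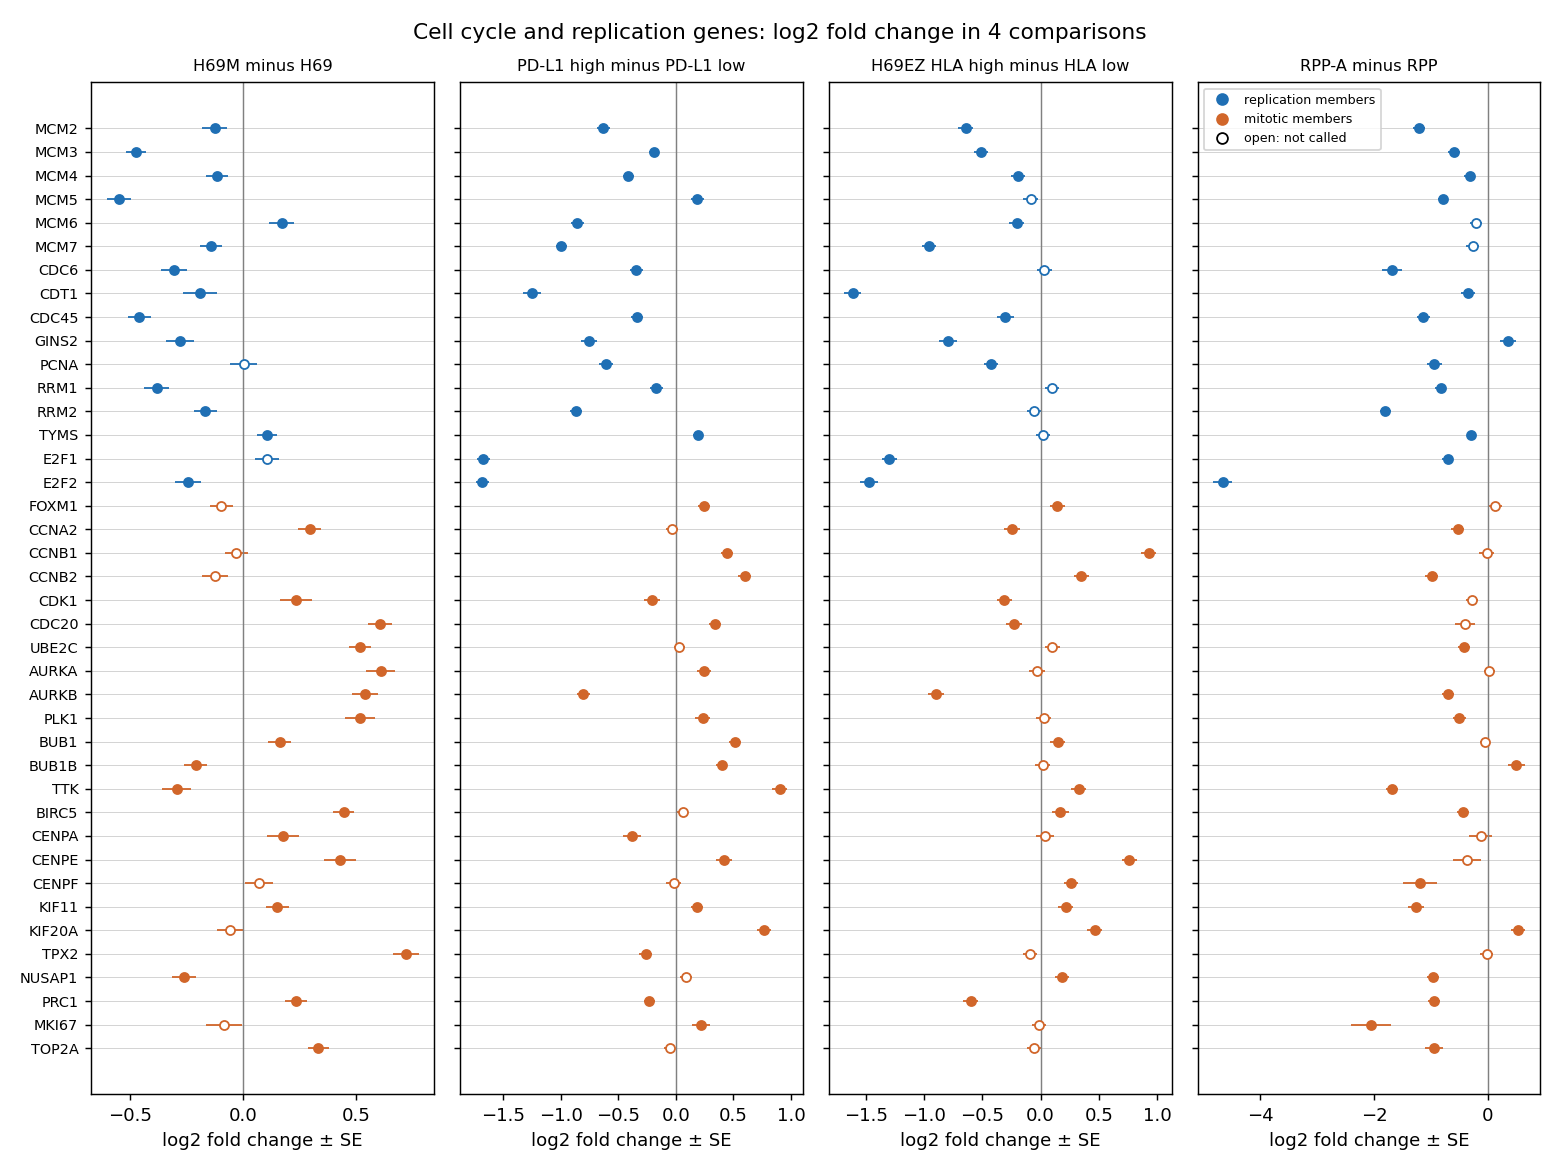
Log2 fold change ± SE (horizontal axes, which differ in range) of the 40 members in 4 comparisons, by edgeR; filled points had an adjusted p under 0.05 over all genes. In the 3 human panels most replication members lie left of 0, while more called mitotic members lie right of it, a majority that turned with library totals in the PD-L1 and HLA sorts; in RPP-A minus RPP 26 of 40 members were lower.

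H69M was set against H69 to ask how the MHC class I high derivative differs from its parent. Of the 40 members 17 were higher and 15 lower in H69M, near the shares of all 15445 tested genes called higher (35.9%) and lower (36.6%). A gene was called where edgeR's quasi-likelihood test gave an adjusted p (Benjamini-Hochberg, over all tested genes) under 0.05, and each change is a log2 fold change ± SE. The directions followed the roles: of replication members 2 were higher and 12 lower, and of mitotic members 15 were higher and 3 lower, with median log2 fold changes of -0.18 and 0.20 beside -0.01 over all genes. With library totals or DESeq2's size factors in place of TMM, 3 replication members were higher and 9 lower. Of all genes 38.3% were higher and 34% lower with library totals, and 37% and 35.3% with size factors. No member differed 2-fold or more, while 23.8% of all genes did.

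Among licensing and helicase genes 9 of 10 were lower in H69M. MCM5, a helicase subunit, had the largest change, with 136, 137 and 132 CPM in H69M, against 197, 188 and 207 CPM in H69 (log2 fold change -0.55 ± 0.05, adjusted p = 1.87e-08). MCM2, another subunit, had 204, 212 and 211 CPM in H69M, against 217, 222 and 246 CPM in H69 (log2 fold change -0.13 ± 0.05, adjusted p = 0.046). For both genes all H69M libraries lay below all H69 libraries, but the call of MCM2 was lost in 11 of 14 alternative settings, as was that of MCM4, and the call of CDT1 in 7 of 14. Of the nucleotide and clamp genes, RRM1, the large subunit of ribonucleotide reductase, had 419, 407 and 416 CPM in H69M, against 508, 539.5 and 572 CPM in H69 (log2 fold change -0.38 ± 0.06, adjusted p = 3.6e-06). PCNA had 596, 588 and 555 CPM in H69M, against 528, 578 and 631 CPM in H69 (log2 fold change 0.00 ± 0.06, adjusted p = 0.972), and its groups overlapped. E2F2, an activating E2F factor, had 95.3, 97.8 and 103 CPM in H69M, against 112, 121 and 118 CPM in H69 (log2 fold change -0.24 ± 0.06, adjusted p = 0.000596), all H69M values being lower. E2F1, its close relative, had 173, 187 and 177 CPM in H69M, against 168, 165 and 166 CPM in H69 (log2 fold change 0.10 ± 0.05, adjusted p = 0.0786), where the groups did not overlap but the difference did not pass the test.

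Mitotic members were mostly higher in H69M. CDC20, which activates the anaphase-promoting complex, had 144, 141 and 140.4 CPM in H69M, against 90.4, 90.0 and 100.4 CPM in H69 (log2 fold change 0.60 ± 0.05, adjusted p = 3.28e-09). AURKA, a spindle pole kinase, had 101, 109.5 and 95.7 CPM in H69M, against 63.0, 65.0 and 74.0 CPM in H69 (log2 fold change 0.61 ± 0.06, adjusted p = 4.48e-08), and TPX2, the protein that activates AURKA on the spindle, had 851, 925 and 844 CPM in H69M, against 511, 504 and 579 CPM in H69 (log2 fold change 0.72 ± 0.06, adjusted p = 4.95e-10). For all 3 the H69M libraries lay above the H69 libraries. CENPE, a kinetochore motor, had 138, 145 and 142 CPM in H69M, against 113, 107 and 94.8 CPM in H69 (log2 fold change 0.43 ± 0.07, adjusted p = 1.84e-05), again with no overlap. TOP2A, the topoisomerase that untangles sister DNA, had 856, 878 and 875 CPM in H69M, against 708, 698 and 669 CPM in H69 (log2 fold change 0.33 ± 0.05, adjusted p = 2.61e-06), also without overlap. BUB1B, TTK and NUSAP1 went the other way, with log2 fold changes of -0.21 ± 0.05, -0.29 ± 0.06 and -0.26 ± 0.05. CCNB1, the mitotic cyclin B1, had 317, 307 and 302 CPM in H69M, against 306, 324 and 316 CPM in H69 (log2 fold change -0.03 ± 0.05, adjusted p = 0.609). The general proliferation antigen MKI67 had 340.1, 413 and 402 CPM in H69M, against 422, 364 and 439 CPM in H69 (log2 fold change -0.08 ± 0.08, adjusted p = 0.353). In both of these genes the groups overlapped.

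Other replication genes, a list of 58, gave 9 higher and 31 lower in H69M with a median of -0.20, and 66 other mitotic genes gave 27 higher and 21 lower with a median of 0.05. The largest called changes among them were 0.86 ± 0.08, for the thymidine salvage kinase TK1, -1.01 ± 0.07, for the S phase cyclin CCNE1, 0.84 ± 0.09, for the CDK subunit CKS1B, and -0.96 ± 0.05, for the condensin subunit SMC2. Of 17 E2F, DP, RB and MuvB genes 6 were higher and 4 lower; the extremes were 1.25 ± 0.06 for TFDP2, a partner of E2F proteins, and -1.16 ± 0.06 for E2F7, a repressor of E2F targets.

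The PD-L1 sort divided the cells of H69M into fractions labelled high and low/negative for MHC class I. Of the 40 members 15 were higher and 19 lower in PD-L1 high than in PD-L1 low cells, where 39% and 39.4% of all tested genes were called. Replication members accounted for 14 of the 19 lower calls, with 2 higher (MCM5 and TYMS) and a median of -0.62 beside 0.00 over all genes. Of mitotic members 13 were higher and 5 lower, with a median of 0.20. Scaled to library totals without TMM, which moves the median of all genes to -0.14, 0 replication members were higher and 14 lower, and 8 mitotic members were higher and 9 lower. Of all genes 32.7% were then higher and 46.4% lower. Relative to the median of all genes the medians stayed at -0.62 and 0.21 in that scaling.

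The E2F activators were the members that differed most. E2F1 had 119.7, 111 and 115 CPM in PD-L1 high cells, against 376, 342 and 381 CPM in PD-L1 low cells (log2 fold change -1.67 ± 0.05, adjusted p = 1.61e-16). E2F2 had 56.9, 51.7 and 51.7 CPM in PD-L1 high cells, against 179, 163 and 171 CPM in PD-L1 low cells (log2 fold change -1.68 ± 0.06, adjusted p = 5.91e-16). In both genes every PD-L1 high library was far below every PD-L1 low library, with no overlap. Their promoters are among those printed above. CDT1, the licensing factor, had 52.5, 56.4 and 52.1 CPM in PD-L1 high cells, against 139.7, 109.5 and 133 CPM in PD-L1 low cells (log2 fold change -1.24 ± 0.08, adjusted p = 8.57e-12). E2F1, E2F2 and CDT1 were the 3 members past 2-fold in this sort, against 33.3% of all genes. MCM2 had 150.4, 158 and 147 CPM in PD-L1 high cells, against 244, 223 and 238 CPM in PD-L1 low cells (log2 fold change -0.63 ± 0.06, adjusted p = 2.27e-09), and of the other helicase subunits MCM7 and MCM6 were lower by the most, at -0.99 ± 0.05 and -0.86 ± 0.06. RRM2, the small subunit of ribonucleotide reductase, had 256, 258 and 245 CPM in PD-L1 high cells, against 461, 464 and 457 CPM in PD-L1 low cells (log2 fold change -0.86 ± 0.05, adjusted p = 3.97e-12). PCNA had 465, 438 and 422 CPM in PD-L1 high cells, against 682, 689 and 649 CPM in PD-L1 low cells (log2 fold change -0.61 ± 0.06, adjusted p = 1.12e-08). None of these groups overlapped.

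Most mitotic members called in the PD-L1 sort were higher in PD-L1 high cells, a majority that library totals removed. CCNB1 had 285, 273 and 258 CPM in PD-L1 high cells, against 198, 211 and 191 CPM in PD-L1 low cells (log2 fold change 0.44 ± 0.05, adjusted p = 1.53e-07). Its relative CCNB2, cyclin B2, had 139, 144 and 136 CPM in PD-L1 high cells, against 96.0, 94.9 and 85.6 CPM in PD-L1 low cells (log2 fold change 0.60 ± 0.06, adjusted p = 1.26e-08). TTK, the kinase that starts the spindle checkpoint, had 108, 106 and 107 CPM in PD-L1 high cells, against 55.7, 61.2 and 55.3 CPM in PD-L1 low cells (log2 fold change 0.90 ± 0.07, adjusted p = 1.18e-10). In these genes all PD-L1 high libraries lay above all PD-L1 low libraries. KIF20A, a kinesin of cytokinesis, had 196, 198 and 196 CPM in PD-L1 high cells, against 115, 112 and 119 CPM in PD-L1 low cells (log2 fold change 0.77 ± 0.06, adjusted p = 3.49e-10). CENPE had 116, 131 and 133 CPM in PD-L1 high cells, against 85.4, 100.3 and 99.4 CPM in PD-L1 low cells (log2 fold change 0.42 ± 0.07, adjusted p = 2.47e-05). The groups did not overlap in either gene. The 5 mitotic members that were lower were AURKB, the kinase of the chromosomal passenger complex, at -0.80 ± 0.06, and CENPA, TPX2, PRC1 and CDK1, at -0.38 to -0.20. MKI67 had 319, 373 and 356 CPM in PD-L1 high cells, against 288, 286 and 326 CPM in PD-L1 low cells (log2 fold change 0.22 ± 0.08, adjusted p = 0.0175). Its groups overlapped, and the call was lost without any of 4 single libraries, PD-L1 high replicate 2 (adjusted p = 0.0862) or 3 (adjusted p = 0.107) and PD-L1 low replicate 1 (adjusted p = 0.144) or 2 (adjusted p = 0.0689), as well as with a minimum count of 100 and with library totals. TOP2A had 881, 871 and 826 CPM in PD-L1 high cells, against 859, 908 and 911 CPM in PD-L1 low cells (log2 fold change -0.05 ± 0.05, adjusted p = 0.29), and its groups overlapped.

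**Figure D4:**
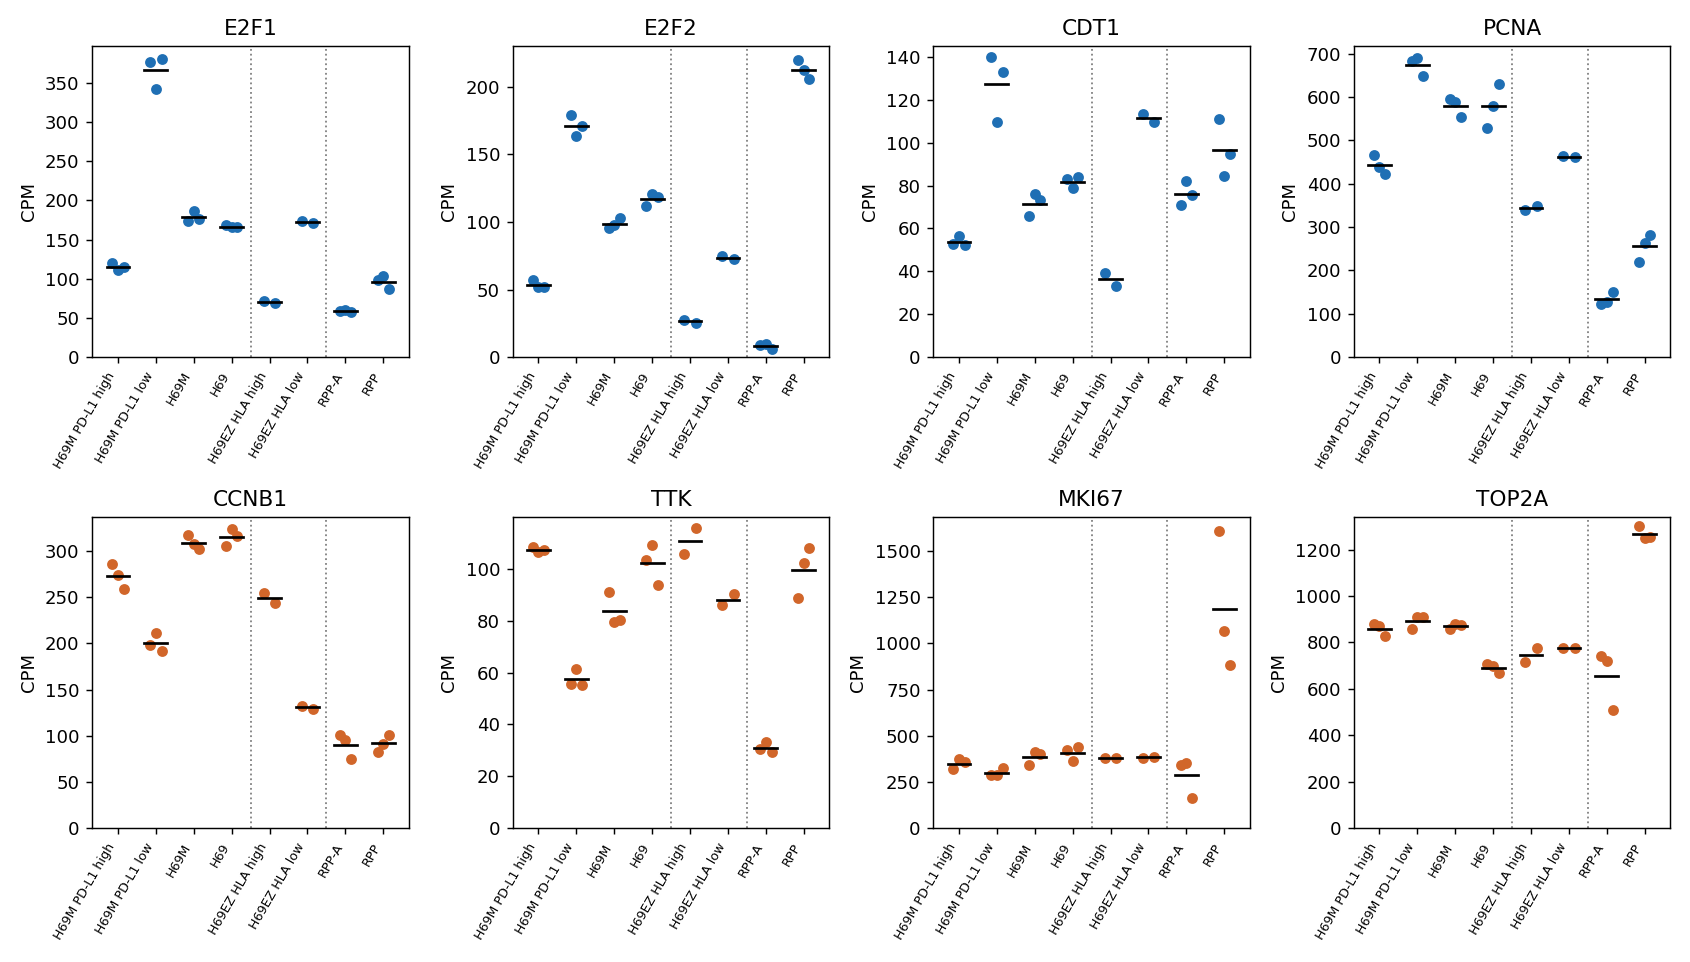
CPM (vertical axes, from 0) of 8 members in every library, with a bar at each group mean; blue genes are replication members and orange genes mitotic members, and dotted lines separate the 3 tables. E2F1 was at 119.7, 111 and 115 CPM in PD-L1 high and 376, 342 and 381 CPM in PD-L1 low cells, while MKI67 overlapped between those fractions.

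Genes outside the 40 gave 2 higher and 47 lower of 58 other replication genes in PD-L1 high cells, with a median of -0.39, and 26 higher and 18 lower of 66 other mitotic genes, with a median of 0.05. The extremes were 0.79 ± 0.06 for PRIM2, a primase subunit, -1.22 ± 0.06 for the exonuclease EXO1, 1.56 ± 0.05 for anillin (ANLN), a scaffold of the cleavage furrow, and -0.78 ± 0.07 for CENPM, a kinetochore protein. ANLN stood at 405, 422 and 419 CPM in PD-L1 high and 135, 137 and 149.9 CPM in PD-L1 low cells. Of the E2F, DP, RB and MuvB genes 4 were higher and 7 lower, from -0.97 ± 0.09 for the repressor E2F6 to 0.83 ± 0.06 for TFDP2. Beside these differences, 6 stress and amino acid response genes summed to 253 to 312 CPM in PD-L1 high and 2234 to 2454 CPM in PD-L1 low cells. They summed to 319 to 328 CPM in unsorted H69M and 411 to 424 CPM in H69, so PD-L1 low cells stood apart from both unsorted lines. The part of these genes in the results was not tested.

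Set against the unsorted lines, the fractions fell on different sides for replication members. In PD-L1 low cells against H69M, 10 of 16 replication members were higher and 1 lower, and 1 of 24 mitotic members was higher and 18 lower; over all genes 32.6% were higher and 33% lower. In PD-L1 high cells against H69M, 1 replication member was higher and 12 lower, and 2 mitotic members were higher and 15 lower, where 37.8% of all genes were higher and 32.6% lower. Both comparisons use the same H69M libraries, and sorting cannot be told apart from fraction in them, since H69M was not sorted. E2F1 was at 119.7, 111 and 115 CPM in PD-L1 high, 376, 342 and 381 CPM in PD-L1 low and 173, 187 and 177 CPM in H69M cells, so unsorted H69M lay between its fractions, as it did for CDT1, at 52.5, 56.4 and 52.1 CPM in PD-L1 high, 139.7, 109.5 and 133 CPM in PD-L1 low and 65.8, 75.8 and 73.1 CPM in H69M cells. PLK1, a kinase of mitotic entry, was instead highest in unsorted cells, at 213, 235 and 226 CPM in PD-L1 high, 197, 188 and 188 CPM in PD-L1 low and 293, 309 and 277 CPM in H69M cells. Its log2 fold change against H69M was -0.38 ± 0.07 in PD-L1 high and -0.62 ± 0.07 in PD-L1 low cells. Of mitotic members 10 of 24 (41.7%), PLK1 among them, were called lower in both fractions than in H69M, beside 8.37% of all genes. No replication member was. Of replication members 8 of 16 (50%), E2F1 and CDT1 among them, were called lower in PD-L1 high and higher in PD-L1 low cells, beside 13.5% of all genes.

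PD-L1 low cells and H69 are both labelled low/negative for MHC class I. Of the 40 members, 15 were higher and 14 lower in PD-L1 low cells, near the 39% and 36.9% of all genes so called. E2F1 had 376, 342 and 381 CPM in PD-L1 low cells, against 168, 165 and 166 CPM in H69 (log2 fold change 1.14 ± 0.05, adjusted p = 1.43e-13). AURKB had 116, 113 and 115 CPM in PD-L1 low cells, against 64.6, 62.2 and 60.4 CPM in H69 (log2 fold change 0.88 ± 0.06, adjusted p = 2.64e-11). Both were higher in all PD-L1 low libraries, and RRM2, CDT1, MCM6 and E2F2 were higher by 0.55 to 0.75. TTK had 55.7, 61.2 and 55.3 CPM in PD-L1 low cells, against 103, 109 and 93.8 CPM in H69 (log2 fold change -0.83 ± 0.07, adjusted p = 6.23e-10). CCNB1 had 198, 211 and 191 CPM in PD-L1 low cells, against 306, 324 and 316 CPM in H69 (log2 fold change -0.65 ± 0.05, adjusted p = 6.29e-10). These mitotic genes were lower in all PD-L1 low libraries. By role 8 replication members were higher and 5 lower, and 7 mitotic members were higher and 9 lower.

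In H69EZ the HLA sort gave 11 members higher and 16 lower in HLA high than in HLA low cells, beside 41.1% and 40.2% of all tested genes. No replication member was higher and 11 of 16 were lower, with a median of -0.36 beside 0.00 over all genes, and 11 mitotic members were higher and 5 lower, with a median of 0.07. On library totals, which move the median of all genes to -0.15, the mitotic median turned to -0.08, with 5 mitotic members higher and 10 lower, and 0 replication members were higher and 14 lower. Of all genes 35.1% were then higher and 47.8% lower. With 2 libraries a group the spread of each gene was estimated largely from all genes together, and the adjusted p are very small. Without HLA low replicate 1 or 2 the higher calls numbered 7 or 6, beside 36.5% of all genes in either fit.

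CDT1, E2F2 and E2F1 again had the largest changes and were the 3 members past 2-fold, against 34.3% of all genes. CDT1 had 39.1 and 33.3 CPM in HLA high cells, against 113 and 109.7 CPM in HLA low cells (log2 fold change -1.62 ± 0.07, adjusted p = 2.18e-114). E2F2 had 27.6 and 25.3 CPM in HLA high cells, against 74.4 and 72.9 CPM in HLA low cells (log2 fold change -1.48 ± 0.07, adjusted p = 6.72e-86). E2F1 had 71.0 and 69.1 CPM in HLA high cells, against 174 and 171 CPM in HLA low cells (log2 fold change -1.30 ± 0.07, adjusted p = 4.44e-85). Every HLA high library was below every HLA low library in all 3 genes. MCM2 had 108 and 105 CPM in HLA high cells, against 171 and 162 CPM in HLA low cells (log2 fold change -0.64 ± 0.06, adjusted p = 5.45e-23). PCNA had 339.9 and 348 CPM in HLA high cells, against 463 and 461 CPM in HLA low cells (log2 fold change -0.43 ± 0.06, adjusted p = 5.47e-12). Both were lower without overlap, while RRM1, RRM2 and TYMS, which supply nucleotides, had log2 fold changes of 0.10 ± 0.06, -0.05 ± 0.06 and 0.02 ± 0.06 and did not pass the test.

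Among mitotic members CCNB1 was higher by the most, with 254 and 244 CPM in HLA high cells, against 133 and 129 CPM in HLA low cells (log2 fold change 0.93 ± 0.06, adjusted p = 5.17e-48). CENPE had 121 and 143 CPM in HLA high cells, against 76.9 and 78.5 CPM in HLA low cells (log2 fold change 0.76 ± 0.07, adjusted p = 2.63e-30). In both genes the groups did not overlap. AURKB had 38.0 and 36.4 CPM in HLA high cells, against 70.9 and 68.2 CPM in HLA low cells (log2 fold change -0.90 ± 0.07, adjusted p = 6.28e-35). PRC1, which bundles midzone microtubules, had 162 and 161 CPM in HLA high cells, against 248 and 243 CPM in HLA low cells (log2 fold change -0.60 ± 0.06, adjusted p = 2.92e-21). Both were lower in each HLA high library. TTK and KIF20A were higher, at 0.33 ± 0.07 and 0.46 ± 0.06, and CDK1, CCNA2 and CDC20 lower, at -0.31 ± 0.06, -0.24 ± 0.07 and -0.23 ± 0.07. MKI67 had 379 and 383 CPM in HLA high cells, against 381 and 387 CPM in HLA low cells (log2 fold change -0.01 ± 0.06, adjusted p = 0.845). TOP2A had 715 and 777 CPM in HLA high cells, against 775 and 777 CPM in HLA low cells (log2 fold change -0.06 ± 0.06, adjusted p = 0.376). Neither general marker passed the test, and their groups overlapped.

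The other lists gave 14 higher and 34 lower of 57 replication genes listed in this table (median -0.20) and 26 higher and 23 lower of 66 mitotic genes (median -0.03). The extremes were 1.64 ± 0.08 for GINS4, a subunit of the GINS complex, -1.56 ± 0.08 for the origin recognition subunit ORC1, 0.90 ± 0.07 for CDCA2, a chromatin phosphatase subunit of mitotic exit, and -0.92 ± 0.06 for KIF22, a chromosome arm kinesin. GINS4 thus went against GINS2, which was lower in HLA high cells at -0.80 ± 0.08. E2F, DP, RB and MuvB genes had 4 higher and 9 lower, from -0.74 ± 0.07 for the MuvB subunit LIN9 to 0.82 ± 0.07 for RBL2, which encodes the RB family protein p130. The stress and amino acid response genes summed to 372 to 392 CPM in HLA high and 1325 to 1349.85 CPM in HLA low cells, and 6 mitochondrially encoded genes to 17188 to 17295 CPM in HLA high and 32900 to 34422 CPM in HLA low cells. Refitted without the mitochondrially encoded genes, the HLA sort again gave 11 members higher and 16 lower, beside 41.2% and 40.2% of all genes. Beyond that recount, the part of both groups of genes in the results was not tested.

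In the mouse pair mitotic as well as replication members were mostly lower in RPP-A. Of the 40 members 3 were higher and 26 lower in RPP-A than in RPP, beside 37.6% and 40.6% of all 14032 tested genes. Of replication members 1 was higher and 13 lower (median -0.74), and of mitotic members 2 were higher and 13 lower (median -0.42), where the median over all genes was -0.04. Without EHK_RPP4 and RPPM3 these were 1 higher and 15 lower (median -0.69) and 5 higher and 15 lower (median -0.36), from 4 libraries. Of all genes 43.7% were then higher and 44.8% lower. The RPP-A columns left in that fit, RPPM1 and RPPM2, were nearly alike and may not be separate cultures. With RPPM1 and RPPM2 summed as 1 library, 2 members were higher and 23 lower, beside 35.5% and 37.9% of all genes. On library totals, which move the median of all genes to -0.40, 0 members were higher, with 15 replication and 20 mitotic members lower. Of all genes 28.2% were then higher and 52% lower. At least 2-fold changes were found for 9 members, all lower, against 50% of all genes.

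E2f2 had by far the largest change of the members, with 9.22, 9.64 and 6.37 CPM in RPP-A, against 219, 212 and 206 CPM in RPP (log2 fold change -4.66 ± 0.17, adjusted p = 2.83e-07). E2f1 had 58.5, 60.3 and 57.9 CPM in RPP-A, against 98.4, 103 and 86.7 CPM in RPP (log2 fold change -0.71 ± 0.09, adjusted p = 0.000217). No library of RPP-A reached the RPP levels of either gene, and the log2 fold changes without EHK_RPP4 and RPPM3 were -4.43 and -0.63. Rrm2 had 111, 108 and 96.3 CPM in RPP-A, against 362, 359.8 and 375 CPM in RPP (log2 fold change -1.80 ± 0.10, adjusted p = 1.77e-06). Cdc6, which loads the helicase, had 25.5, 28.6 and 36.4 CPM in RPP-A, against 119, 88.3 and 84.7 CPM in RPP (log2 fold change -1.69 ± 0.18, adjusted p = 6.18e-05). Both were lower without overlap, at -1.71 and -1.63 without those columns. Mcm2 had 192, 195 and 206 CPM in RPP-A, against 417, 482 and 477 CPM in RPP (log2 fold change -1.21 ± 0.10, adjusted p = 1.91e-05). Pcna had 121, 128 and 150.2 CPM in RPP-A, against 220.1, 264 and 282 CPM in RPP (log2 fold change -0.94 ± 0.13, adjusted p = 0.000314). These too were lower in all RPP-A libraries, at -1.27 and -1.09 without the columns. Gins2 was the replication member called higher, at 0.35 ± 0.14, but its groups overlapped and the call was lost or turned in 10 of 14 alternative settings.

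Mki67, the general proliferation antigen, had 342, 356 and 162 CPM in RPP-A, against 1609.5, 1064 and 882 CPM in RPP (log2 fold change -2.05 ± 0.35, adjusted p = 0.000882). EHK_RPP4 was the highest and RPPM3 the lowest of the 6 columns, and without them the log2 fold change was -1.44, still without overlap. Top2a had 741, 721 and 512 CPM in RPP-A, against 1300.0, 1251 and 1252 CPM in RPP (log2 fold change -0.95 ± 0.16, adjusted p = 0.000896), lower in all RPP-A libraries. Ttk had 30.6, 33.3 and 29.2 CPM in RPP-A, against 88.7, 102 and 108 CPM in RPP (log2 fold change -1.68 ± 0.11, adjusted p = 3.93e-06). Kif11, the motor that separates spindle poles, had 185, 188 and 148 CPM in RPP-A, against 364, 441 and 447 CPM in RPP (log2 fold change -1.27 ± 0.14, adjusted p = 7.54e-05). All RPP-A libraries were lower in both genes. Ccnb2 had 76.1, 85.0 and 66.8 CPM in RPP-A, against 139, 151 and 162 CPM in RPP (log2 fold change -0.99 ± 0.12, adjusted p = 0.000111). Cenpf, a kinetochore protein, had 167, 167 and 71.6 CPM in RPP-A, against 314, 326 and 285 CPM in RPP (log2 fold change -1.19 ± 0.30, adjusted p = 0.00704). RPPM3 lay far below the other RPP-A columns in Cenpf, and the log2 fold change was -0.83 without EHK_RPP4 and RPPM3. Ccnb1 had 101, 95.2 and 75.1 CPM in RPP-A, against 83.03, 91.4 and 101 CPM in RPP (log2 fold change -0.02 ± 0.14, adjusted p = 0.883), with overlapping groups. Kif20a and Bub1b, the mitotic members called higher, were at 0.53 ± 0.12 and 0.50 ± 0.14.

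Replication genes outside the members were 3 higher and 43 lower of 58 in RPP-A (median -0.80), and mitotic genes 7 higher and 37 lower of 64 tested (median -0.42). Their extremes were 0.58 ± 0.21 for Orc4, -4.24 ± 0.11 for the nuclease and helicase Dna2, 1.34 ± 0.20 for securin (Pttg1) and -2.37 ± 0.12 for the kinetochore gene Spc24. Dna2 was at 6.23, 6.60 and 5.37 CPM in RPP-A and 114, 115 and 116 CPM in RPP. Among the E2F, DP, RB and MuvB genes, 4 were higher and 11 lower. Rbl2, the gene of p130, was at 54.8, 53.5 and 53.2 CPM in RPP-A and 3.59, 2.70 and 2.53 CPM in RPP, a log2 fold change of 4.20 ± 0.14. Rb1 went the other way, at 4.81, 6.83 and 4.93 CPM in RPP-A and 31.3, 32.5 and 35.0 CPM in RPP, a log2 fold change of -2.57 ± 0.16. In both genes the groups lay far apart. The name RPP is used in mouse SCLC work for tumours with deleted Rb1, Trp53 and Rbl2, but the labels here do not say which alleles these lines carry, and counts per gene do not show whether a deleted exon is covered. The stress and amino acid response genes summed to 754 to 829 CPM in RPP-A and 466 to 504 CPM in RPP; their part in the results was not tested.

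**Figure D5:**
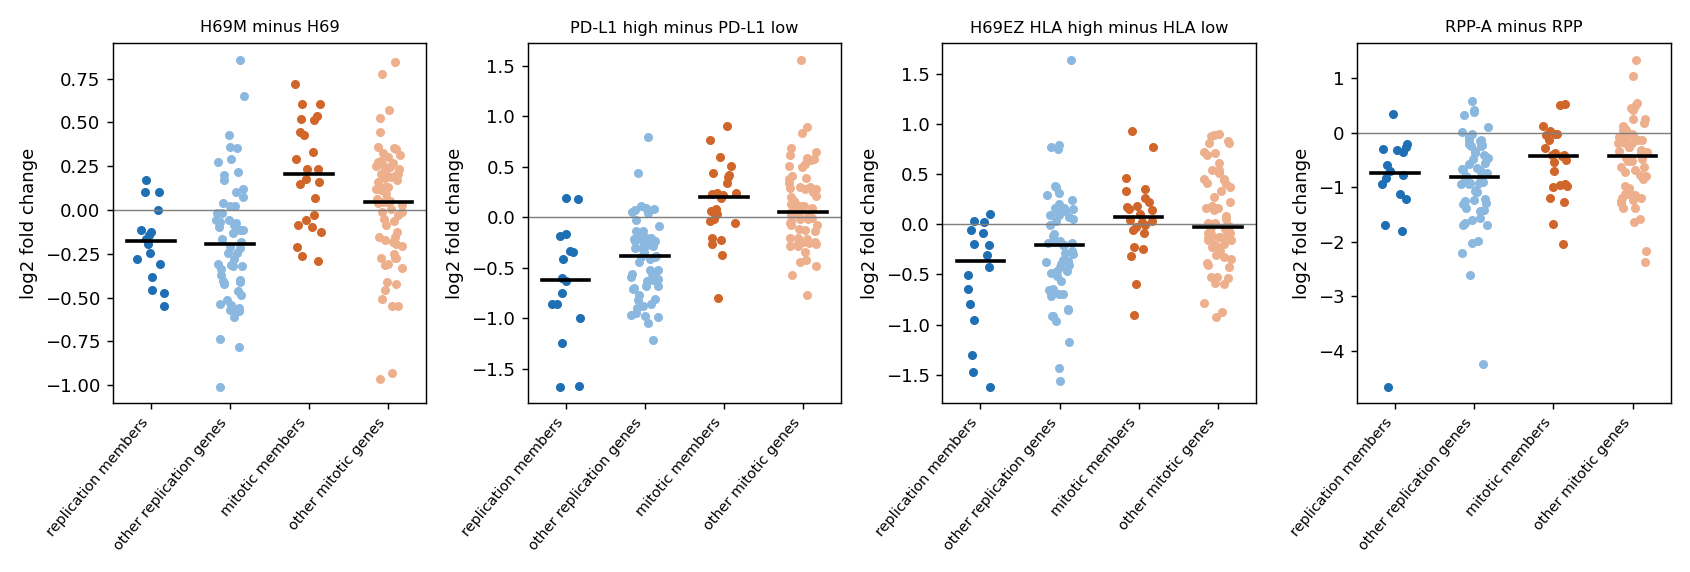
Log2 fold changes (vertical axes, which differ in range) of members and of other cell cycle genes in 4 comparisons, with a point per gene and a bar at each median. Other replication genes had medians of -0.20, -0.39, -0.20 and -0.80 and other mitotic genes 0.05, 0.05, -0.03 and -0.42 in H69M minus H69, PD-L1 high minus low, HLA high minus low and RPP-A minus RPP.

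Set side by side, the 4 pairs, which share no library, had 6 members called lower in every one, namely CDC45, CDT1, E2F2, MCM2, MCM3 and MCM4, which is 6 of 40 members beside 6.65% of the 11213 genes tested in all 3 tables by symbol. GINS2 and MCM7 were called lower in the 3 human pairs as well, making 8 members beside 10.9% of genes. These counts lean on H69M calls of MCM2, MCM4 and CDT1, which were lost in 11, 11 and 7 of 14 alternative settings. With DESeq2's size factors 3 members were lower in all 4 pairs (CDC45, E2F2 and MCM3) and 5 in the 3 human pairs, and with library totals 5 and 6. The shares of genes were 6.23% and 10.1% with size factors, and 8.7% and 12.7% with library totals. In all 7 alternatives recounted for the 4 pairs CDC45, E2F2 and MCM3 were among those lower in every pair. BUB1, CENPE and KIF11 were called higher in the 3 human pairs, 3 members beside 16.2% of genes (CENPE alone with library totals, beside 14.7%), and 0 members were called higher in all 4, beside 10.9% of genes. Of 23 members called in both the PD-L1 and the HLA sort, 22 went the same way, CDC20 being the exception at 0.34 ± 0.05 in the PD-L1 sort and -0.23 ± 0.07 in the HLA sort. Among all 9166 genes called in both sorts, 79.7% went the same way. H69M minus H69 and the PD-L1 sort shared the direction for 12 of 14 replication members called in both and for 6 of 13 mitotic members, where 56.8% of all 9112 genes called in both did. TTK and TPX2 are examples of opposite calls, at -0.29 ± 0.06 and 0.72 ± 0.06 in H69M minus H69 and 0.90 ± 0.07 and -0.26 ± 0.06 in the PD-L1 sort. In the remaining pairings members shared the direction no more often than all genes called in both. H69M minus H69 and the HLA sort did so for 12 of 20 members (60%, beside 63.1% of genes). H69M minus H69 and the mouse pair did so for 12 of 23 (52.2%, beside 58.0%). The PD-L1 sort and the mouse pair did so for 15 of 23 (65.2%, beside 67.9%). For the HLA sort and the mouse pair it was 12 of 19 (63.2%, beside 63.5%).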

How the data were processed

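RNA of 22 libraries was captured with an Illumina exome kit and sequenced on an Illumina NextSeq, per the labels' protocols. STAR 2.6.1 and the builds hg19 and mm10 are named in the submitters' processing notes, while how reads were counted (tool, annotation, strandedness) is not given in the sources used here. The authors deposited whole-number counts per gene in 3 tables, unnormalized. Genes were tested within each table with edgeR 4.0.16 in R 4.3.3 (TMM, filterByExpr with a minimum count of 10, quasi-likelihood F-test, all groups of a table sharing the spread), with Benjamini-Hochberg adjustment over all tested genes and a threshold of 0.05. The script was tested on simulated data. CPM are TMM-scaled, and an SE is the log2 fold change over the square root of F. Mouse columns were mapped by group only, and columns named RPPM were taken as RPP-A. The members and lists were chosen with earlier results of these data known. MKI67, TOP2A, PCNA, MCM2, CCNB1, E2F1 and, in the 4 main comparisons, the called member with the largest change of each role are given in full; of each other list, the largest called rise and fall. Further genes were named after their values were seen. Alternatives used DESeq2 1.42.0, limma 3.58.1, other scalings and filters, and left-out libraries. Some listed symbols (UHRF1 in the H69EZ table, Kif4a and Depdc1 in the mouse table) were not matched and are not analysed here.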

Additional observations from a re-analysis of the deposited data

Results flagged for a closer look

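Some members had every library of the MHC class I high group above the low group in 1 pair and every library below it in another. Beside each count stands the percent of all genes tested in both tables that did the same, which is often as large as the members' share of the 40. These differences between pairs were not tested, and the mouse and human tables were fitted separately.

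Members higher in H69M than in H69 but lower in PD-L1 high than in PD-L1 low cells numbered 7 (17.5%, beside 13.4% of all genes), namely MCM6, E2F1, CDK1, AURKB, CENPA, TPX2 and PRC1. The opposite held for 4 (10%, beside 13% of genes), MCM5, BUB1B, TTK and NUSAP1. Against the HLA sort, 8 members (20%, beside 12.5% of genes) were higher in H69M and lower in HLA high cells, namely MCM6, E2F1, CCNA2, CDK1, CDC20, AURKB, TPX2 and PRC1. A further 4 (10%, beside 13.5% of genes), CDC6, RRM1, TTK and NUSAP1, were lower in H69M and higher in HLA high cells. Between H69M and the mouse pair, 12 members (30%, beside 13.7% of genes) were higher in H69M and lower in RPP-A, namely TYMS, E2F1, CCNA2, CDK1, CDC20, UBE2C, AURKB, PLK1, BIRC5, KIF11, PRC1 and TOP2A. Only 1 (2.5%, beside 12.9% of genes), BUB1B, was lower in H69M and higher in RPP-A.

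Between the sorts, CDC20 was the 1 member higher in PD-L1 high and lower in HLA high cells (2.5%, beside 8.59% of genes), and 2 (5%, beside 8.51% of genes), CDC6 and RRM1, were lower in PD-L1 high and higher in HLA high cells. Against the mouse pair, 8 members (20%, beside 11.9% of genes) were higher in PD-L1 high cells and lower in RPP-A, namely MCM5, TYMS, CCNB2, CDC20, PLK1, TTK, KIF11 and NUSAP1. As many, 8 (20%, beside 15.1% of genes), were higher in HLA high cells and lower in RPP-A, namely CDC6, RRM1, CCNB2, TTK, BIRC5, CENPF, KIF11 and NUSAP1. The opposite of these last 2 held for 0 members, beside 10.4% and 13.5% of genes. Not all of these members passed the test in both pairs.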

How the results depend on the processing

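Calls among the 40 members were recounted under each alternative. With a 2-fold minimum, higher and lower calls numbered 0 and 0 in H69M minus H69, 0 and 3 in PD-L1 high minus low, 1 and 0 in PD-L1 low cells set against H69, 0 and 0 in PD-L1 high minus H69M, 1 and 0 in PD-L1 low minus H69M, 0 and 3 in HLA high minus low, and 0 and 9 in RPP-A minus RPP. In the same order, the shares of all genes so called were 15.2% and 8.55%, 16.3% and 17%, and 16.9% and 8.52%. They were 15% and 8.5% in PD-L1 high minus H69M, and 8.48% and 7.92% in PD-L1 low minus H69M. The HLA sort had 19.5% and 14.8%, and RPP-A minus RPP 22.9% and 27.1%. With library totals, higher calls numbered 8 between PD-L1 fractions (beside 32.7% of all genes), 5 between HLA fractions (35.1%) and 0 in RPP-A (28.2%). That scaling shifts the median of all genes in these comparisons. Without EHK_RPP4 and RPPM3 higher calls numbered 6 in RPP-A, beside 43.7% of all genes. Leaving out 1 library at a time gave 6 to 12 higher calls in the HLA sort, beside 36.5% to 41.9% of all genes. Among members called in at least 1 of both settings, library totals turned the log2 fold change of AURKA (-0.34) and GINS2 (-0.015) in RPP-A, of BUB1 (-0.0038), BUB1B (-0.13), FOXM1 (-0.0077) and TYMS (-0.13) in the HLA sort, and of UBE2C (-0.11) in the PD-L1 sort; TPX2 in RPP-A turned to 0.12 without EHK_RPP4 and RPPM3. Of members called in neither setting, library totals turned the sign of 5 in the HLA sort, 4 in PD-L1 low cells set against H69, 2 in the PD-L1 sort and 1 in each other comparison. Members called lower in the 3 human pairs numbered 5 with DESeq2's size factors, with no filter, with a minimum count of 100 and with DESeq2's test. In those settings 9.47% to 10.6% of genes were lower in the 3 human pairs. Members lower in all 4 pairs numbered 3 with DESeq2's size factors, beside 6.23% of genes. Members higher in the 3 human pairs numbered 1 with library totals, beside 14.7% of genes. These recounts, and the sums on library totals, were chosen after the data were seen.

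Among the H69 and H69M libraries, samples with the same replicate number did not deviate together throughout, with correlations of -0.66 to 0.49 over 18 pairs. In H69EZ both of the 2 same-numbered pairs gave 0.196, and pairs of different number -0.196. With 2 libraries a group, deviations from the group mean are equal and opposite, so these are 1 value with its sign turned. Replicate numbers were not taken as pairs in either set. With a replicate block, higher and lower calls numbered 16 and 13 in H69M minus H69, 15 and 19 in the PD-L1 sort, 13 and 14 in PD-L1 low cells set against H69, 3 and 25 in PD-L1 high minus H69M, 11 and 19 in PD-L1 low minus H69M, and 11 and 16 in the HLA sort. Over these comparisons 31.6% to 41.1% of all genes were called higher and 31.8% to 40.1% lower. No block could be fitted in the mouse table, whose columns are not numbered as replicates. The 2-fold minimum is left out of the counts that follow, and of the counts above of settings in which a call was lost. Of the called members, 22 of 32 kept the call under all other alternatives run in H69M minus H69 and 26 of 34 between PD-L1 fractions. Between HLA fractions 16 of 27 kept it, and in RPP-A 23 of 29. The cause of these changes was not tested beyond the scaling itself.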
